A study of Saccharomyces cerevisiae with 20 samples.

Results

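The proteins of the small ribosomal subunit of Saccharomyces cerevisiae are encoded by 56 genes, RPS0A to RPS31, chosen by name from the gene column of every table. All 56 were listed, among 6921 genes in the series, and all 56 passed the filter on low reads in each of the 8 comparisons. They make up 32 families, of which 24 have a copy A and a copy B and 8 have a single gene. RNA-Seq was performed on W303 wild type (WT) and on nulls of TUP1, SDS3, XBP1 or ISW2, which carry drug resistance at the deleted locus. Cultures grew in 25 mL YPD at 30 °C and were harvested at diauxic shift (DS), shortly after glucose could no longer be detected, or in stationary phase (SP), after days of growth, with 2 biological replicates for each strain and phase, called libraries A and B. The stationary cultures were whole cultures and not purified quiescent cells, and Δtup1 cells clump. In SP, library B of each deletion came from a column with another strain number than library A, whereas WT carried the same number in both. Every deletion was compared with the same 2 WT libraries of its phase. A deviating WT library therefore enters all comparisons of that phase, which are not independent of each other.

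A small subunit is built from a single rRNA and one protein of each family, and it reads the mRNA. Its head carries proteins such as Rps3 and Rps15, and the body and platform carry the others. Yeast transcribes these genes together when sugar is plentiful, mainly through Rap1, which binds their promoters with Fhl1 and the activator Ifh1, while Sfp1, Hmo1 and the TOR and Sch9 kinases adjust the output. Transcription of the genes drops as glucose runs out. Of the deleted factors, Tup1 is a corepressor that works with Ssn6, Sds3 is a subunit that the Rpd3L histone deacetylase needs, Xbp1 is a stress-induced repressor that recruits Rpd3, and Isw2 is an ATP-dependent nucleosome remodeler.

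Promoter stretches are shown for 5 of the members that carry a Rap1 core on their own strand, Rap1 being the usual activator of these genes. Whether Rap1 took part in any of the changes was not tested. The letters CACCC, any 2 bases and ACA, a core of the Rap1 site, occurred on either strand within 600 bases before the start codon of 11 of 56 members (19.6%) and of 152 of 5999 protein-coding genes (2.53%). A looser form that contains it, with any base at the third position, was added after these stretches were seen, and it occurred in 25 members (44.6%) against 6.98% of all genes. GACGCA, a core of the Fhl1 site, was found for 7 members (12.5%) against 13.0% of all genes, and CTCGAG, the core of the Xbp1 site, for 2 (3.57%) against 9.63%. A match is a description of the letters and no evidence of binding. The sequences were read from the RefSeq R64 assembly (sacCer3, strain S288C, whereas the samples are W303), on the strand of the gene, with the stricter form in capitals. The window begins at the start codon because the annotation gives no transcription start.
RPS7A (chrXV:505295-505354, plus strand): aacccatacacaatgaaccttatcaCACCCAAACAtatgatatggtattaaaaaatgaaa
RPS16B (chrIV:308118-308177, minus strand): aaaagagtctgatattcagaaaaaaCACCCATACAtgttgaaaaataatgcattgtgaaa
RPS21B (chrX:157582-157641, minus strand): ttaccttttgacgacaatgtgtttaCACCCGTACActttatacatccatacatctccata
RPS23B (chrXVI:794631-794690, plus strand): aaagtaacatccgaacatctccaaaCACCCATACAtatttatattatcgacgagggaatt
RPS24A (chrV:305961-306020, plus strand): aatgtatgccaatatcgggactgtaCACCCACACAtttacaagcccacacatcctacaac

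The libraries held between 20963633 and 32558227 reads on genes in DS, between 9994448 and 28421881 in SP library A and between 2543155 and 4424289 in SP library B. Reads on the deleted gene were at most 8 in every library of its own deletion, against at least 144 in every WT library. The 56 members took 0.482% and 0.708% of the reads on genes in WT at DS and 0.748% and 0.649% in WT at SP. In SP, the share was 1.56% and 1.47% in Δsds3, above both WT libraries, and 0.325% and 0.319% in Δxbp1, below both. It was 0.510% and 0.465% in Δtup1, also below both, while the 0.622% and 0.688% in Δisw2 overlapped WT. In DS, the share of Δsds3 was above both WT libraries (1.10% and 1.51%). Those of Δtup1 (0.958% and 0.636%), Δxbp1 (0.453% and 0.626%) and Δisw2 (0.553% and 0.692%) overlapped WT. These shares are of the RNA in the library, and fewer active cells and less RNA per cell cannot be told apart in a bulk culture. The WT libraries at DS differed from each other, with members lower in library A than in library B (median log2 difference, A minus B, -0.65).

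**Figure D1:**
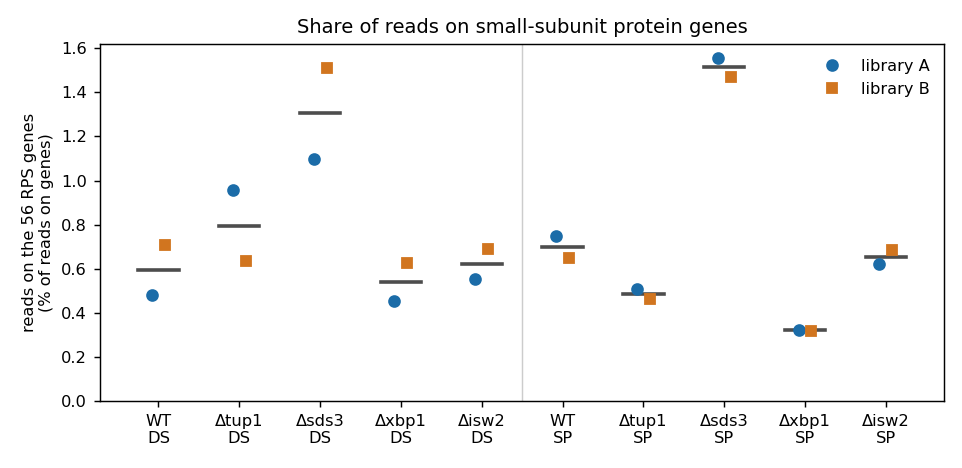
Percent of reads on genes that fell on the 56 RPS genes, for each strain at diauxic shift (DS) and stationary phase (SP). Circles are library A, squares library B, and the bar is their mean. In SP the Δsds3 libraries lie at 1.56% and 1.47% and the Δxbp1 libraries at 0.325% and 0.319%, apart from the WT libraries at 0.748% and 0.649%.

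Levels within the family spanned a wide range. In RPKM (reads per kilobase of coding sequence, scaled to the reads on genes), the median member stood at 232 and 207 in WT at SP. RPS30A and RPS30B, which encode a small basic protein, were at the top with 1954 and 2178 and with 1833 and 2191 on that scale. RPS9A, the minor copy for a protein that affects decoding accuracy, was lowest at 21.7 and 23.2. RPS9A was also lowest in WT at DS (17.2 and 10.8), where the median member stood at 163 and 239. In Δsds3, RPS22B took the last place in 3 of 4 libraries.

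In SP, Δxbp1 had lower levels of nearly the whole family. Of 56 members, 52 (92.9%) were called lower than WT and 0 higher, where 11.5% of the 5968 genes tested were called lower and 12.3% higher. A member was called at an adjusted p under 0.05 (limma with Benjamini-Hochberg adjustment over all genes tested) together with a level at least 1.5-fold higher or lower. The median log2 fold change was -1.35, a 2.55-fold lower level, and it was -0.01 over all genes. Before adjustment, at p under 0.05, 54 members (96.4%) were lower and 0 higher, against 40.9% of all genes in either direction, and edgeR and DESeq2 on the recovered reads called 52 and 51 lower and 0 higher. In 55 members both Δxbp1 libraries lay below both WT libraries, whereas the groups did not overlap, in either direction, for 66.7% of all genes.

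The largest fall in Δxbp1 was that of RPS7A (YOR096W, chromosome XV from 505794 to 506767), 1 of 2 genes for the body protein Rps7. Its normalized counts were 790.2 and 699.9 in WT and 172 and 163 in Δxbp1. Both deletion libraries were far below WT (log2 fold change -2.15, SE 0.17, adjusted p = 7.17e-06, limma). RPS26B (YER131W, chromosome V from 423952 to 424311) encodes a protein at the mRNA exit site and had 613 and 375 in WT and 136 and 110.5 in Δxbp1 (log2 fold change -1.96, SE 0.24, adjusted p = 0.000112). For RPS19A, which encodes a head protein whose human counterpart is mutated in Diamond-Blackfan anemia, the counts were 447 and 323 in WT and 104 and 95.9 in Δxbp1 (log2 fold change -1.91, adjusted p = 6.3e-05). The groups lay apart in each of these 3 genes. At the other end, RPS29A (515 and 293 in WT, 300.4 and 381 in Δxbp1) overlapped WT and was not called, its log2 fold change being -0.20 (adjusted p = 0.575). RPS7B (-0.45, adjusted p = 0.082), RPS27A (-0.52, adjusted p = 0.0259, under 1.5-fold) and RPS9A (-0.56, adjusted p = 0.136) were the other members without a call. The smallest fall that was called was that of RPS14B, with 674 and 535 in WT and 428 and 366 in Δxbp1.

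All 8 single-copy members fell in Δxbp1 at SP. RPS12, a protein of the beak, went from 818 and 702 normalized counts to 254 and 259 (log2 fold change -1.56). RPS31, which is made as a fusion to ubiquitin, went from 2046 and 1979 to 542 and 666 (-1.74). RPS3, whose protein lines the mRNA entry channel, went from 1354 and 1259 to 366 and 436 (-1.71). The fall was smallest in this set for RPS2, another protein of the mRNA entry channel, with 1439 and 1318 in WT and 583 and 733 in Δxbp1 (-1.07, SE 0.16, adjusted p = 0.000441, limma). RPS13, RPS15 and RPS20 had log2 fold changes of -1.18, -1.33 and -1.45, with adjusted p of at most 0.00138 (limma). By place in the subunit, 21 of 22 head members and 31 of 34 body and platform members were called lower, with median log2 fold changes of -1.42 and -1.18. Members with an intron (33 of 36, median -1.21) and without (19 of 20, median -1.49) had like shares called. Of the 25 members with the looser Rap1 core in the window, all 25 were called lower with a median of -1.38, and of the 31 without it 27 with a median of -1.33. The same split was also counted in other comparisons. The looser form was added after the data were seen, and differences between the sets were not tested. In Δtup1 at SP, 13 of 25 were called lower and 0 higher with the core, and 9 of 31 lower and 3 higher without. Of all genes tested there, 24% were called lower and 25.7% higher. In Δtup1 at DS, 4 of 25 and 11 of 31 were called higher and 0 lower, against 13.8% and 6.27% of all genes. In Δsds3 at SP, 17 of 25 and 17 of 31 were called higher, and 1 lower in each set. Of all genes tested there, 27.6% were called higher and 25.4% lower.

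**Figure D2:**
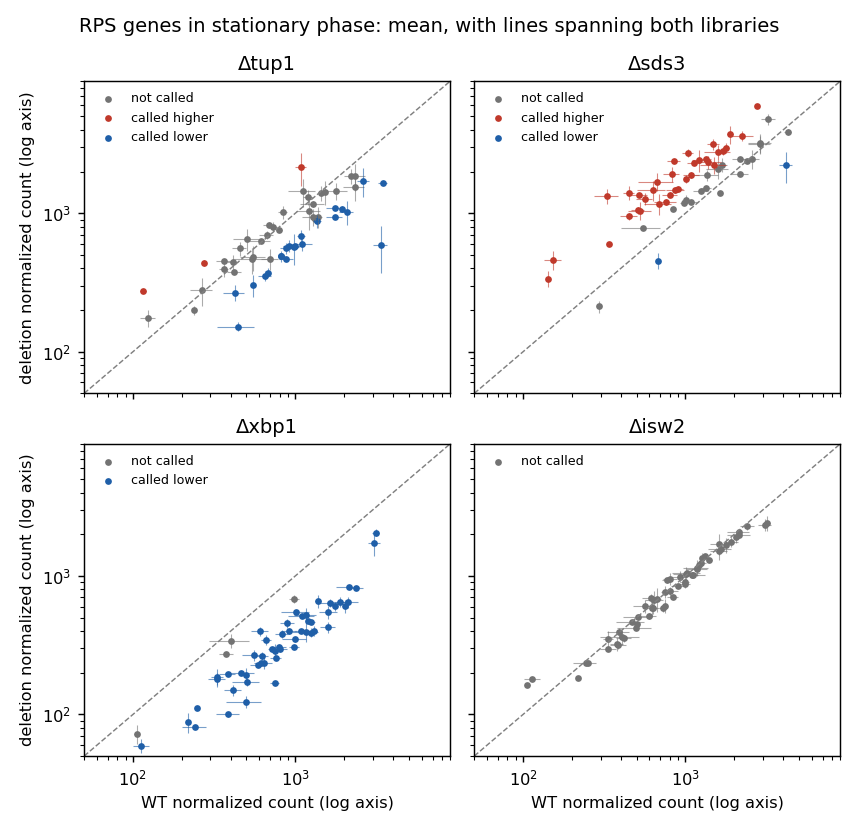
Normalized counts of the 56 RPS genes in stationary phase, with WT on the x axis and each deletion on the y axis (both log axes). Points are means of 2 libraries, thin lines reach from the lower to the higher library, the dashed line marks equal levels, and colors give the limma call. In Δxbp1, 52 genes are called lower; in Δsds3, 34 are called higher and 2 lower; in Δtup1, 3 higher and 22 lower; in Δisw2, 0.

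Genes around the family moved unevenly in Δxbp1 at SP. STM1, which binds idle ribosomes and preserves them in starved cells, fell from 3311 and 3153 to 956 and 674 normalized counts (log2 fold change -2.01, SE 0.18, adjusted p = 1.23e-05, limma), and ASC1, the yeast RACK1 on the head, fell from 648 and 375 to 223 and 235 (-1.10, adjusted p = 0.00414). Among the 81 genes of the large subunit, 74 were called lower and 0 higher, with a median of -1.30. Of 11 regulators of ribosomal protein genes, 1 was called, TOD6, a repressor of ribosome biogenesis genes, which was lower (-0.63, adjusted p = 0.008). Of 11 assembly factors of the small subunit, FAP7 (1.05), an ATPase that handles Rps14, and RIO2 (0.65), an atypical kinase of late maturation, were called higher and TSR1 (-0.98) lower, and the median of the 11 was -0.05.

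Δsds3 went the other way in SP. Here 34 of 56 members (60.7%) were called higher and 2 (3.57%) lower, where 27.6% of the 6211 genes tested were called higher and 25.4% lower. The median log2 fold change of the members was 0.75, a 1.68-fold higher level, against 0.00 for all genes. With p unadjusted (under 0.05), 39 members were higher and 3 lower, or 42 of 56, against 66.4% of all genes. The deletion libraries lay above both WT libraries for 44 members and below both for 4, or 85.7% not overlapping, where the share over all genes tested was 82.3%.

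RPS22A (YJL190C, chromosome X from 74910 to 75302) rose most in Δsds3. Its normalized counts were 382 and 273 in WT and 1484 and 1158 in Δsds3, a 4.05-fold difference (log2 fold change 2.02, SE 0.20, adjusted p = 1.54e-05, limma). RPS28B (YLR264W, chromosome XII from 673131 to 673334), whose protein takes part in the decay of its own mRNA, had 171 and 135 in WT and 533 and 389 in Δsds3 (1.57, adjusted p = 0.000132). In both of these genes each Δsds3 library was more than 2 times the higher WT library.

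The 2 members that went against the majority in Δsds3 at SP were RPS30B and RPS25B. RPS30B (YOR182C, chromosome XV from 678191 to 678793) had 3789 and 4499 in WT and 1649.6 and 2771 in Δsds3, lower in both libraries but unevenly so (log2 fold change -0.95, SE 0.23, adjusted p = 0.00398, limma). RPS25B, for a head protein, had 694 and 660.0 in WT and 513 and 394 in Δsds3 (-0.59, adjusted p = 0.0129), and its call was lost under other settings given in the closing part. RPS22B, the third lowest, had 303 and 288 in WT and 233 and 192 in Δsds3 and was not called (-0.48, under 1.5-fold). Among single-copy members, 6 of 8 were called higher. RPS12 rose from 1113 and 955 to 2919.9 and 2563 (1.41), RPS13 from 752 and 503 to 1718 and 1227 (1.24) and RPS31 from 2785 and 2693 to 6172 and 5808 (1.13). RPS20, RPS2 and RPS3 rose by log2 fold changes of 1.08, 0.97 and 0.74. RPS15 was at 0.15 (adjusted p = 0.548), with libraries that overlapped WT. Head members (12 of 22 higher, median 0.74) and body and platform members (22 of 34, median 0.77) had like medians.

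The assembly factors of the subunit were high in Δsds3 at SP as well, with 8 of 11 called higher and 0 lower and a median of 1.16. LTV1, an export and assembly factor, rose from 610.3 and 498 to 2159.7 and 2385 (log2 fold change 2.04, SE 0.16, adjusted p = 3.9e-06, limma), followed by RIO2 (2.00), DIM1, the rRNA dimethylase (1.72), TSR2, which escorts Rps26 (1.5), FAP7 (1.39), YAR1, the chaperone of Rps3 (1.16), TSR1 (1.03) and ENP1 (0.99). Of 11 regulators, the activator IFH1 (0.79) and RAP1 (0.62) were called higher. CRF1, a corepressor that competes with Ifh1 (-1.30), SFP1 (-0.80) and STB3 (-0.59), a repressor, were called lower. XBP1, the target of another deletion, was also lower (9027 and 8718 in WT, 5561 and 5297 in Δsds3, log2 fold change -0.71). Neither ASC1 (0.12) nor STM1 (-0.44) was called. In the large subunit, 44 of 81 genes were called higher and 1 lower, with a median of 0.69.

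In Δtup1 at SP the members split. While 22 of 56 (39.3%) were called lower, 3 (5.36%) were called higher, where 24% of the 6035 genes tested were called lower and 25.7% higher. The median log2 fold change was -0.32, against 0.00 over all genes, and at an unadjusted p under 0.05, 26 were lower and 3 higher, 51.8% together, which is below the 57.1% of all genes. Leaving out WT library A left 8 lower and leaving out WT library B 12, against 25 without Δtup1 library A and 18 without Δtup1 library B.

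RPS30B fell most in Δtup1 at SP, with normalized counts of 3022 and 3689.7 in WT and 369 and 803 in Δtup1, a 6.12-fold lower level (log2 fold change -2.61, SE 0.31, adjusted p = 5.64e-05, limma). RPS29A (YLR388W, chromosome XII from 898651 to 898821), for a zinc-binding head protein, had 559 and 327 in WT and 164 and 140.0 in Δtup1 (-1.49, adjusted p = 0.0011), and RPS30A had 3222 and 3668 in WT and 1643 and 1650.1 in Δtup1 (-1.06, adjusted p = 0.00112). Both Δtup1 libraries were below both WT libraries in all 3. Such separation, in either direction, was found for 64.3% of members and for 76.8% of all genes tested. Against that direction, RPS9A (YPL081W, chromosome XVI from 404950 to 406044) rose from 111 and 121 to 266 and 279.9 (log2 fold change 1.23, SE 0.24, adjusted p = 0.00136). RPS27A (YKL156W, chromosome XI from 158613 to 159212) rose from 988 and 1169.7 to 1567 and 2735 (0.94, adjusted p = 0.0112), with its Δtup1 libraries far from each other, and RPS21A from 267 and 279.6 to 460.5 and 413 (0.67, adjusted p = 0.0214). All 3 of the genes called higher are copy A of a pair and have an intron. However, 9 of the 24 copy A members were called lower. So were 16 of the 36 members with an intron and 6 of the 20 without. The single-copy members RPS2, RPS3, RPS12, RPS13, RPS15, RPS20 and RPS31 were not called and lay between -0.35 (RPS15) and 0.36 (RPS13). By place, 10 of 22 head members were lower and 0 higher, and 12 of 34 body and platform members were lower and 3 higher.

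Among regulators in Δtup1 at SP, DOT6, a repressor of ribosome biogenesis genes that works through Rpd3L, rose from 2469 and 2897 to 16263 and 15045 normalized counts (log2 fold change 2.55, SE 0.21, adjusted p = 4.11e-06, limma). RAP1 (1.31) and FHL1 (0.89) were also called higher, and TOD6 (-1.27) and CRF1 (-1.06) lower. Of the assembly factors, 5 of 11 were called higher and 0 lower, namely DIM1 (1.96), FAP7 (1.34), ENP1 (1.24), PNO1 (1.09), which acts at the last cleavage of the rRNA, and RIO2 (0.69). STM1 was lower (-0.88, adjusted p = 0.00854). The large subunit was likewise split, with 24 of 81 genes lower and 7 higher and a median of -0.35.

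No member was called in Δisw2 at SP, where 1.21% of the 5953 genes tested were called higher and 0.706% lower. By p without adjustment (under 0.05), 2 members were higher and 2 lower (7.14% together, 14.9% of all genes), and edgeR and DESeq2 also called 0. The median log2 fold change was -0.07, with a range from -0.40 for RPS30B to 0.66 for RPS28B and standard errors from 0.14 to 0.24. RPS28B stood at 127 and 101 in WT and 187 and 173 in Δisw2 (adjusted p = 0.149, limma), and RPS9A at 103 and 110.0 in WT and 168 and 157 in Δisw2 (0.61, adjusted p = 0.169). Both had deletion libraries above WT, without passing the test. The groups did not overlap, in either direction, for 15 of 56 members (26.8%) and for 44.4% of all genes tested. RPS12 was the next highest (0.28), and RPS30A (-0.40) and RPS18B (-0.32) followed RPS30B at the low end. The single-copy members lay between -0.12 and 0.28.

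**Figure D3:**
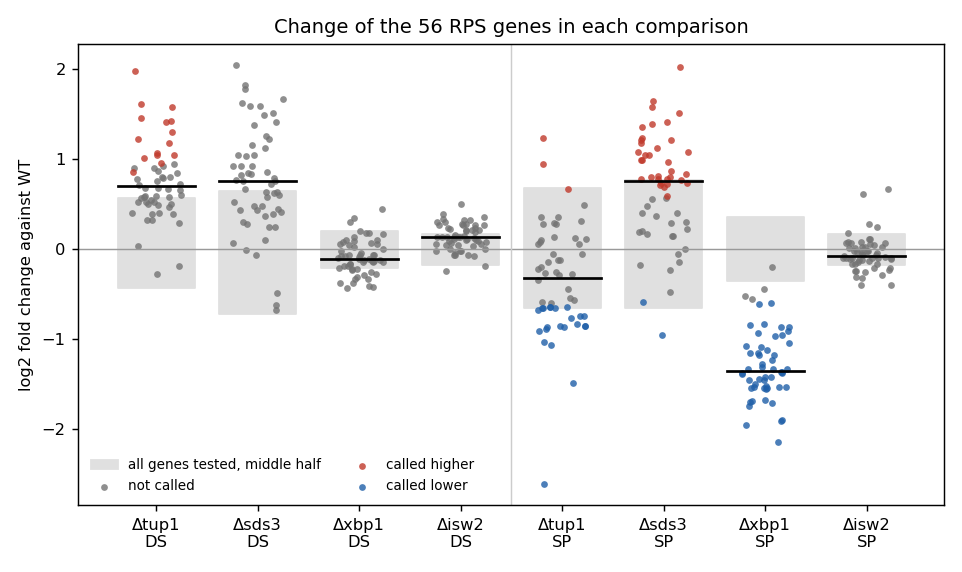
Log2 fold change of each of the 56 RPS genes against WT in the 8 comparisons. Points are genes, colored where called by limma, black lines are medians, and the grey band runs from the lower to the upper quartile of all genes tested. In SP the median is -1.35 in Δxbp1 and 0.75 in Δsds3, and in DS it is 0.70 in Δtup1 and 0.76 in Δsds3, where 0 genes are called for Δsds3.

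In DS, Δtup1 had 15 of 56 members (26.8%) called higher and 0 lower, where 13.8% of the 6295 genes tested were called higher and 6.27% lower. Before adjustment, at p under 0.05, 28 of 56 members were higher and 0 lower, against 33.4% of all genes in either direction, and edgeR and DESeq2 called 15 and 17 higher and 0 lower. Both Δtup1 libraries lay above both WT libraries for 33 members and below both for 0. These 58.9% are near the 61.4% of all genes whose groups did not overlap in either direction. The median log2 fold change of members was 0.70, against -0.02 over all genes. The rise was large between the A libraries (median 1.31) and small between the B libraries (median 0.05). The labels do not tie equal letters to each other, so this split rests on an arbitrary pairing. Members were lower in WT library A than in WT library B (median log2 difference, A minus B, -0.65) and higher in Δtup1 library A than in Δtup1 library B (0.64). Without WT library A, 2 members were called, without Δtup1 library A 3 and without Δtup1 library B 27. With all 10 DS libraries in a joint fit, 1 was called, and without the filter on low reads 9.

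RPS9A rose most in Δtup1 at DS and was high in both replicates. Its normalized counts were 267 and 184 in WT and 1111 and 696 in Δtup1, a 3.95-fold difference (log2 fold change 1.98, SE 0.34, adjusted p = 0.00016, limma), and it was the member still called in the joint fit. RPS22A had 707 and 1532 in WT and 4144 and 2434 in Δtup1 (1.61, adjusted p = 0.00267) and RPS21A 759.6 and 1304 in WT and 3946 and 2258 in Δtup1 (1.58, adjusted p = 0.00189). In both genes Δtup1 library B was less than 2 times WT library B. The lowest members were RPS30B (-0.27), RPS25B (-0.19) and RPS29A (0.04), whose libraries overlapped WT. Of the single-copy members, RPS3 (1909 and 2467 in WT, 7284 and 3912 in Δtup1, 1.30), RPS13 (1.22) and RPS12 (1.04) were called. RPS2, RPS15, RPS20 and RPS31 were not called and lay between 0.60 for RPS15 and 0.86 for RPS31. ASC1 rose from 1198 and 2087 to 13542 and 3776 (2.18, adjusted p = 0.000832, limma), most of it in library A. DOT6 was the only 1 of 11 regulators called (7963 and 9721 in WT, 26109.6 and 33640.0 in Δtup1, 1.75), and 0 of 11 assembly factors were. In the large subunit 24 of 81 genes were higher and 0 lower.

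**Figure D4:**
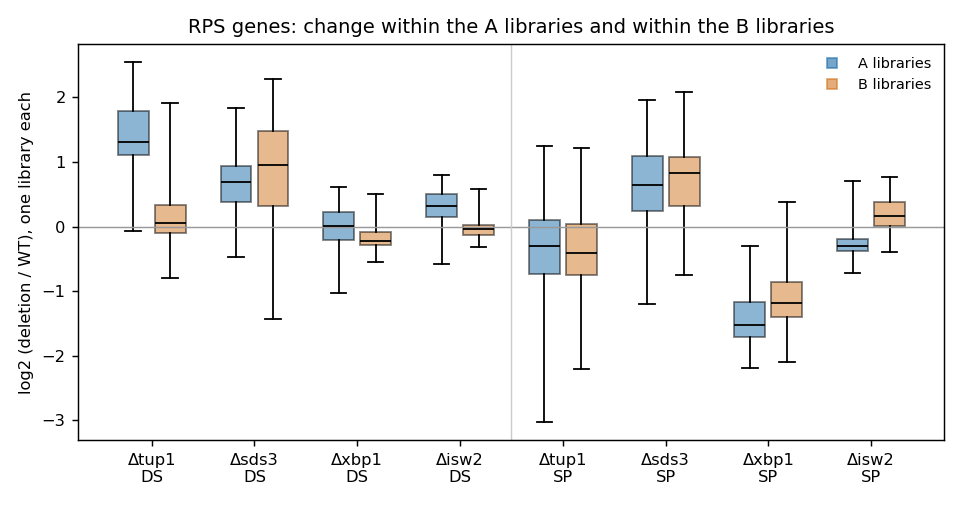
Log2 ratio of deletion to WT for the 56 RPS genes, taken separately between the A libraries (left box of each pair) and between the B libraries (right box). Boxes run from the lower to the upper quartile, the line is the median and whiskers reach the lowest and highest gene. For Δtup1 at DS the medians are 1.31 and 0.05, and for Δxbp1 at SP they are -1.53 and -1.18. The labels do not tie libraries of equal letter to each other, so the pairing is arbitrary.

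For Δsds3 at DS the members had a median log2 fold change of 0.76, yet 0 of 56 were called, where 1.94% of the 6340 genes tested were called higher and 0.852% lower. With p unadjusted (under 0.05), 12 (21.4%) were higher and 0 lower, close to the 23.5% of all genes in either direction. EdgeR called 0 and DESeq2 9, all higher. Standard errors of members lay between 0.42 and 0.64, and both Δsds3 libraries lay above both WT libraries for 24 members and below both for 1. These 44.6% are fewer than the 56.3% of all genes whose groups did not overlap. RPS22A had 804 and 1715 in WT and 2821 and 8345 in Δsds3 (log2 fold change 2.05, SE 0.62, adjusted p = 0.104, limma), with Δsds3 library B far above library A. RPS9A had 303 and 206 in WT and 857 and 924 in Δsds3 (1.83, adjusted p = 0.0876) and RPS14B 1824 and 2703 in WT and 6547 and 8887 in Δsds3 (1.78, adjusted p = 0.0689). In both genes each Δsds3 library was more than 2 times the higher WT library. RPS31 stood at 4515 and 6758 in WT and 9494 and 30614 in Δsds3 (1.63, adjusted p = 0.17). Other single-copy members had log2 fold changes between 0.48 (RPS20) and 1.41 (RPS12). At the low end were RPS25B (-0.67), RPS27A (-0.62) and RPS30B (-0.48). Without Δsds3 library A, 33 members were called higher and 2 lower, and without Δsds3 library B 6 higher, in a fit in which the remaining library is assumed to vary like the WT libraries. Of the listed regulators and assembly factors, 0 were called.

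For Δxbp1 and Δisw2 at DS, 0 members were called and 0 reached an unadjusted p under 0.05, where 7.53% and 3.97% of all genes did, and edgeR and DESeq2 called 0 members as well. The background was 0.432% higher and 0.032% lower of 6243 genes in Δxbp1, and 0.064% higher and 0.032% lower of 6247 genes in Δisw2. The median log2 fold change of members was -0.10 in Δxbp1, with RPS3 lowest at -0.44 and standard errors from 0.22 to 0.45. RPS3 had 1871 and 2427 in WT and 1180.4 and 2097 in Δxbp1 there, and RPS7A, which fell most in this strain at SP, had 982 and 2231 in WT and 985 and 1710.3 in Δxbp1 (-0.19). In Δisw2 the median was 0.13, between -0.24 for RPS3 and 0.50 for RPS10B, with standard errors from 0.20 to 0.46. At the larger of these standard errors, a change of 1.5-fold in a single member could not be separated from replicate spread.

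The change in each deletion was then compared between the phases with limma's interaction term, on 8 libraries. For Δtup1, 9 of 56 members were called as lower at SP than at DS relative to WT and 0 as higher, with a median difference of -1.11, where 5.84% of the 6029 genes tested in both phases were called lower and 3.85% higher. By p without adjustment (under 0.05), 35 members (62.5%) were lower and 0 higher, against 28.3% of all genes in either direction. RPS30B had the largest difference, -2.34 (SE 0.47, adjusted p = 0.0111), followed by RPS29B, -1.91 (SE 0.45, adjusted p = 0.0214), and RPS30A, -1.86 (SE 0.36, adjusted p = 0.0104). RPS29B was the member called higher at DS (1385 and 2814 in WT, 5017 and 3324 in Δtup1) and lower at SP (665 and 686 in WT, 402 and 344 in Δtup1). RPS11B, RPS27B, RPS22B, RPS7A, RPS24B and RPS23B made up the rest. The count was 1 without DS WT library A, 2 without DS Δtup1 library A, 2 without SP WT library A, 0 without SP WT library B, 4 without SP Δtup1 library A and 2 without SP Δtup1 library B, and it was 25 without library B of either strain at DS.

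For Δxbp1, all 56 members had a lower change at SP than at DS, with a median difference of -1.28. Before adjustment, at p under 0.05, 43 (76.8%) were lower and 0 higher, against 15.5% of all genes in either direction, and 3 were called lower and 0 higher, where 0.369% of 5956 genes were called lower and 0.353% higher. They were RPS19A, -1.99 (SE 0.36, adjusted p = 0.047), RPS10A, -1.54 (SE 0.28, adjusted p = 0.047), and RPS6B, -1.5 (SE 0.29, adjusted p = 0.0497). Without DS WT library B the count was 45, without DS WT library A 2, and without any other library 0. In Δsds3, 0 members were called as different between the phases and 0 reached an unadjusted p under 0.05 (background 0.0486% higher and 0.0324% lower of 6179 genes), with a median difference of -0.14 and standard errors from 0.36 to 0.79. Without DS Δsds3 library A, however, 14 were called. In Δisw2 the counts were also 0 and 0 (background 0% in both directions of 5946 genes), with a median of -0.21.

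The copies of a pair did not always move together. The log2 ratio of reads on copy A to reads on copy B needs no scaling between libraries, and with 2 libraries a group it was described and not tested. In WT at SP it ran from -2.73 and -2.37 for RPS9, where copy B dominates, to 3.24 and 3.57 for RPS28, where copy A does. For the RPS22 pair, whose copy B has an intron and copy A none, it was 0.33 and -0.07 in WT and 2.67 and 2.58 in Δsds3 at SP, a shift of 2.49. At DS it was 0.49 and 1.40 in WT and 2.59 and 3.52 in Δsds3, a shift of 2.11. The pair thus moved towards copy A in both phases, in cultures that share no WT library. RPS28 moved the other way in Δsds3, from 3.24 and 3.57 to 1.40 and 1.81 at SP and from 3.15 and 3.13 to 1.80 and 2.17 at DS.

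In Δxbp1 at SP the RPS7 ratio went from 0.94 and 1.04 in WT to -0.69 and -0.72, so that copy B, which was not called lower, came to hold the larger part of the reads. The RPS29 ratio went from -0.25 and -1.06 to 0.30 and 0.72. In Δtup1 at SP, RPS27 went from -0.15 and 0.37 to 1.45 and 2.20, RPS30 from 0.09 and -0.01 to 2.15 and 1.04 and RPS0, needed for rRNA maturation, from 0.78 and 1.05 to -0.53 and -0.44. Both deletion libraries lay on the same side of both WT libraries in each of these pairs. Such separation was common, being found at SP for 17 of 24 pairs in Δxbp1, 19 in Δtup1 and 10 in Δisw2. The RPS30 shift in Δtup1 was also seen at DS, with 0.88 and 0.94 in WT and 2.12 and 1.84 in Δtup1, as was that of RPS9, from -2.65 and -3.72 to -2.11 and -2.20. RPS29 went from -0.49 and -0.36 to -1.48 and -1.39 there. The RPS0 ratio shifted by -0.89 in Δtup1 at DS, whereas that of RPS27 shifted by -0.445, with libraries that overlapped WT. RPS7 and RPS29 shifted by -0.29 and 0.18 in Δxbp1 at DS. Of 24 pairs, the number whose ratio shifted by more than 1 on the log2 scale was 6 in Δtup1, 4 in Δsds3, 3 in Δxbp1 and 0 in Δisw2 at SP, and 3, 6, 0 and 0 at DS. The widest shifts in Δisw2 were those of RPS9 (0.71) and RPS28 (-0.69) at SP and RPS10 (-0.57) and RPS6 (-0.39) at DS. In Δxbp1 at DS, RPS6 shifted by -0.51. Reads of near-identical copies are uncertain. In the RPS22, RPS25, RPS27, RPS28 and RPS29 pairs every 37-base stretch is found once in the genome, but the share is 22.4% in RPS6 and 42.5% in RPS4 for the less distinct copy.

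**Figure D5:**
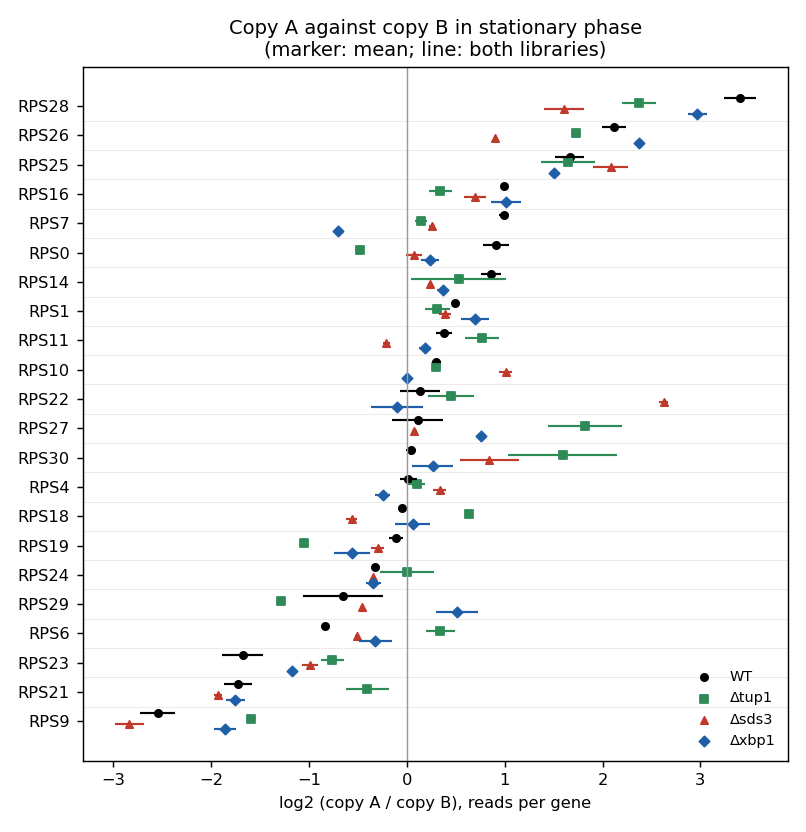
Log2 ratio of reads on copy A to reads on copy B for 22 of the 24 duplicated RPS pairs in stationary phase, ordered by the WT ratio. Markers are the mean of 2 libraries and lines join them, for WT, Δtup1, Δsds3 and Δxbp1. RPS22 stands at 2.62 in Δsds3 against 0.13 in WT, RPS7 at -0.70 in Δxbp1 against 0.99, and RPS27 at 1.82 in Δtup1 against 0.11.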

How the data were processed

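Poly-A selected mRNA libraries were sequenced as paired ends by the authors and aligned to sacCer3 with bowtie2. How reads were counted on genes, and with which annotation, is not given in the sources used here. Each deposited table compares a deletion with WT in 1 phase and holds normalized counts for 4 libraries, which are a signal made by the authors with DESeq2 (read counts per gene divided by the size factor of the library). The tables also hold the authors' own mean, log2 fold change, standard error, test statistic, p-value and adjusted p-value, which were not used. Columns were assigned to groups by strain number, and 0 columns of per-sample values were left unassigned. Dividing by the smallest step of each column gave whole reads for 100% of values within a tolerance of 0.1.

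Genes were filtered by filterByExpr on these reads (edgeR 4.0.16), and log2(normalized count + 1) was tested per table by limma 3.58.1 with a trend in R 4.3.3. Fold changes on this scale understate those of low genes. P-values were adjusted by Benjamini-Hochberg over all genes tested, and calls needed an adjusted p under 0.05 and 1.5-fold. Differences between phases were tested as an interaction on 8 libraries, with 4 from each table. The phases were normalized separately, so levels are not compared between them other than as shares of reads. The spread was estimated from 2 libraries per group.

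The genes named are the 8 single-copy members, the 3 highest and 3 lowest per comparison, those called against the majority, the 2 pairs whose copies changed most unequally, the deleted genes and called genes of the lists of bound proteins, regulators and assembly factors. RPS29B and others outside this rule were named after their values were seen. Results for some members that the rule names are not reported here one by one, though they are counted among the 56. The members and lists were chosen with earlier results of these data known. Promoter windows were read from the R64 genome, and the looser Rap1 core was added after the data were seen. Alternatives were a pseudocount of 8, no filter, other scaling, edgeR and DESeq2 1.42.0 on the recovered reads, all 10 libraries of a phase, the replicate number as a block, and each library left out.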

Additional observations from a re-analysis of the deposited data

Results flagged for a closer look

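The change against WT differed between stationary phase and diauxic shift for 12 member results, by limma's interaction term with Benjamini-Hochberg adjustment over all genes tested. All 12 were lower at SP than at DS relative to WT. In Δtup1 the log2 differences (SP minus DS) were -2.34 for RPS30B (adjusted p = 0.0111), -1.91 for RPS29B (0.0214), -1.86 for RPS30A (0.0104), -1.76 for RPS11B (0.0423), -1.71 for RPS27B (0.0388), -1.69 for RPS22B (0.0371), -1.64 for RPS7A (0.047), -1.49 for RPS24B (0.0366) and -1.45 for RPS23B (0.0405). In Δxbp1 they were -1.99 for RPS19A (adjusted p = 0.047), -1.54 for RPS10A (0.047) and -1.5 for RPS6B (0.0497). WT library A was low for the members at DS, and its part in these differences was not tested beyond leaving it out.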

How the results depend on the processing

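The falls in Δxbp1 and the rises in Δsds3 at SP kept their direction and a count within 1.5 times under every alternative run. Leaving out each library in turn gave 49 to 52 called members in Δxbp1 (median -1.45 to -1.24) and 29 to 39 in Δsds3 (0.57 to 0.92). In Δtup1 at SP it gave 10 to 28 (-0.51 to -0.14), and in Δisw2 at SP 0 to 1 (-0.22 to 0.09), the 1 without WT library A. At DS the counts ranged from 2 to 27 in Δtup1 (median 0.37 to 1.01) and from 0 to 35 in Δsds3 (0.30 to 1.24), and the medians from -0.41 to 0.27 in Δxbp1 and from -0.20 to 0.49 in Δisw2, where they changed sign. For the difference between phases the counts ranged from 0 to 25 in Δtup1, 0 to 14 in Δsds3, 0 to 45 in Δxbp1 and 0 to 0 in Δisw2.

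Without the filter on low reads, Δtup1 at DS had 9 called members and the phase difference in Δxbp1 had 1. With all 10 DS libraries, Δtup1 had 1 and Δsds3 10, and DESeq2 called 9 in Δsds3. The cause of these changes was not tested. With the replicate number as a block, Δsds3 at DS had 11 called members and the phase difference in Δxbp1 had 45, and no other count moved by more than 1.5 times. Deviations of equal-numbered libraries from their group means correlated at -0.018 to 0.58 over genes at DS and at 0.17 to 0.31 at SP, over 0.1 in 7 of 8 comparisons. The labels tie equal numbers to no shared batch or day, and with 2 numbers a group these correlations do not settle whether they pair the libraries. Of 2783 values for single genes under alternatives, 2532 stayed on their side of the threshold, 206 lost a call, 45 gained a call and 0 reversed. RPS25B, called lower in Δsds3 at SP, lost its call under 7 of 11 alternatives.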
